A study of Homo sapiens with 9 samples.

Results

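The genes described here are 10 genes used to recognise intestinal stem cells, namely LGR5, ASCL2, SMOC2, OLFM4, TNFRSF19, EPHB2, EPHB3, CD44, SOX9 and PROM1. They were found by symbol in the count table of every library, where they were 10 of 58920 genes listed, and all 10 were among the 19102 genes tested. Transcripts were counted in 3 human colorectal cancer cell lines with 3 libraries each. LIM1215-parental cells, from a colorectal carcinoma line that responds to cetuximab, an antibody against the EGF receptor, were kept in parallel culture without the antibody. LIM1215-R1 and LIM1215-R2 are resistant populations that were selected independently from these cells with rising amounts of cetuximab, and each is a mixed population and not 1 clone. RNA of all 3 lines came from basal culture without treatment, and the comparisons ask how the lines differ in this state. The study calls the 3 libraries of a line technical replicates, so that the p-values below measure the spread between these libraries and not between separate selections.

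At the base of an intestinal crypt, stem cells marked by the receptor LGR5 divide and renew the epithelium. Their state is maintained by Wnt signals, which are strengthened when R-spondins bind LGR5 and its relatives, and by Notch signals from neighbouring cells. A large share of colorectal cancers carries a constantly active Wnt pathway, and such tumours often keep a part of this gene programme.

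Total counts per library lay between 13737416 and 18725014, and a library had counts for 20379 to 21269 genes. Values are given as CPM, which are read counts scaled to a common library total with the TMM method, and a count of 3 in a library is worth 0.158 to 0.217 CPM. A gene was said to have risen or fallen where edgeR's quasi-likelihood test gave an adjusted p of at most 0.01, and it was called a differentially expressed gene (DEG) where the log2 fold change was also at least 1.5 in size. No library stood apart, since the correlation of log2 CPM was 0.990 to 0.992 between libraries of 1 line and 0.971 to 0.987 between lines.

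The 10 genes did not move as a block. In LIM1215-R1 cells, 1 of the 10 rose against LIM1215-parental (SMOC2) and 4 fell (LGR5, ASCL2, OLFM4 and EPHB2), beside 27.3% of all genes tested that passed the same test, 14.0% upwards and 13.4% downwards. In LIM1215-R2 cells, 3 rose (SMOC2, TNFRSF19 and EPHB3) and 3 fell (ASCL2, OLFM4 and EPHB2), beside 23.8% of all genes, 12.3% upwards and 11.6% downwards. The median log2 fold change of the 10 genes was -0.10 in LIM1215-R1 and 0.09 in LIM1215-R2, and that of all genes tested was -0.01 and -0.00. SMOC2 upwards and OLFM4 downwards were DEGs in both comparisons, beside 5.14% of all genes in LIM1215-R1, 3.24% upwards and 1.91% downwards, and 4.82% in LIM1215-R2, 2.63% upwards and 2.19% downwards. Both comparisons share the parental libraries and are therefore not independent. In bulk RNA, fewer cells that express a gene and less of its RNA per cell cannot be told apart.

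**Figure D1:**
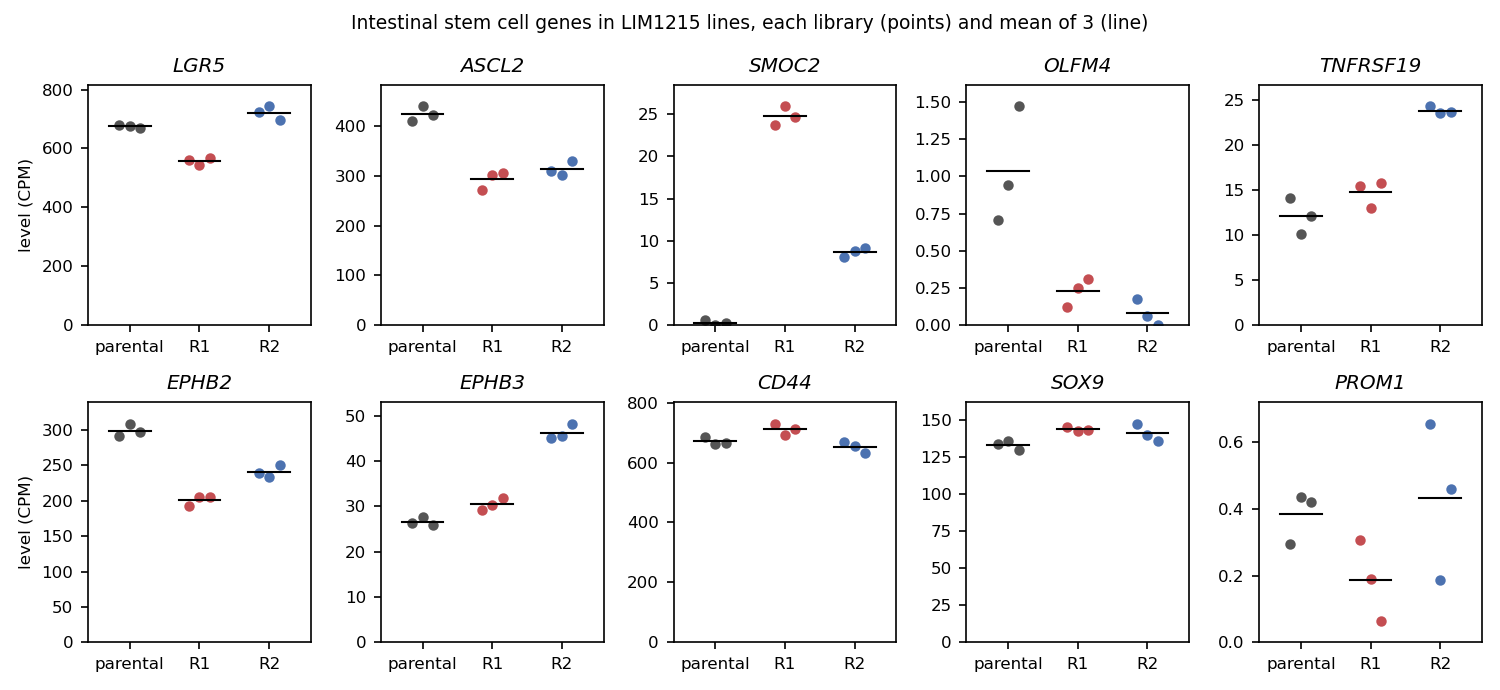
CPM of each of the 10 stem cell genes (vertical axis, linear from 0 in each panel) in the 3 libraries of the parental line and of either resistant line, R1 and R2, with 1 point per library and a bar at the mean of 3. SMOC2 lies between 23.7 and 25.9 CPM in LIM1215-R1 and at no more than 0.649 CPM in LIM1215-parental, whereas the CD44 and SOX9 libraries of the 3 lines lie close together.

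LGR5 is a receptor for R-spondins and the classical marker of the cycling stem cell. The LGR5 gene spans chr12:71439129-71586310 on the plus strand of GRCh38.p14. LGR5 stood at 679, 677 and 671 CPM in the LIM1215-parental libraries, at 561, 543 and 568 CPM in LIM1215-R1 and at 725, 743 and 696 CPM in LIM1215-R2. The 3 lines did not overlap, with LIM1215-R1 lowest and LIM1215-R2 highest. LGR5 fell by 17.5% in LIM1215-R1, with a change of -0.28 ± 0.038 on the log2 scale (SE, edgeR's quasi-likelihood test, Benjamini-Hochberg adjusted p = 1.14e-06). In LIM1215-R2 the log2 fold change against parental was 0.09 with a 95% interval of 0.02 to 0.17, which did not pass (edgeR, adjusted p = 0.0584). LGR5 stayed a strongly expressed gene in every line, and the differences between lines were small beside its level.

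ASCL2 encodes a basic helix-loop-helix transcription factor that acts together with Wnt signals to maintain the stem cell programme. It lies on the minus strand at chr11:2268498-2270588. ASCL2 stood at 412, 440.4 and 423 CPM in LIM1215-parental, at 272, 302 and 307 CPM in LIM1215-R1 and at 309.6, 302 and 330.4 CPM in LIM1215-R2. All 6 resistant libraries were below all parental ones, and the resistant lines overlapped. The log2 fold change was -0.53 ± 0.0483 (SE) in LIM1215-R1 and -0.44 ± 0.0482 in LIM1215-R2 (edgeR, adjusted p = 7.41e-10 and 3.03e-08). Between the resistant lines the log2 difference was 0.10, with a 95% interval of -0.00 to 0.20 (edgeR, adjusted p = 0.217).

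SMOC2, a secreted matrix protein that binds calcium and is part of the LGR5 stem cell signature, had the largest estimated change of the 10 genes in both resistant lines, although in LIM1215-R2 its interval overlapped in size with that of OLFM4. Its gene is on the plus strand at chr6:168441184-168667992. The LIM1215-parental libraries held 11, 0 and 5 counts (0.649, 0 and 0.263 CPM), the LIM1215-R1 libraries 387, 413 and 395 counts (23.7, 25.9 and 24.7 CPM) and the LIM1215-R2 libraries 135, 142 and 140 counts (8.03, 8.79 and 9.14 CPM). Every resistant library was far above every parental one, and LIM1215-R1 was above LIM1215-R2 without overlap. SMOC2 rose 75.5-fold in LIM1215-R1, with a 95% interval of 54.5 to 104, and 26.3-fold in LIM1215-R2, with an interval of 17.8 to 38.9 (log2 fold changes 6.24 ± 0.228 and 4.72 ± 0.274, SE, edgeR, adjusted p = 3.61e-18 and 8.05e-14). The size rests on the few parental counts: without parental replicate 1 the log2 fold changes were 7.28 and 5.76, and without parental replicate 2 they were 5.78 and 4.26. In LIM1215-R1, 99.7% of all genes tested had a smaller change in size, and in LIM1215-R2 98.7%.

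OLFM4, a secreted glycoprotein that follows Notch activity and marks crypt base cells of the human intestine, went the other way at a low level. It lies on the plus strand at chr13:53028813-53052057. OLFM4 had 12, 13 and 28 counts in the LIM1215-parental libraries (0.708, 0.939 and 1.47 CPM), 2, 4 and 5 counts in LIM1215-R1 (0.123, 0.251 and 0.313 CPM) and 3, 1 and 0 counts in LIM1215-R2 (0.178, 0.0619 and 0 CPM). The parental libraries were the highest without overlap, and the resistant lines overlapped near the floor of the counts. OLFM4 fell by 2.17 ± 0.520 (SE) on the log2 scale in LIM1215-R1 and by 3.55 ± 0.632 in LIM1215-R2 (edgeR, adjusted p = 0.0015 and 5.52e-05). Without parental replicate 3, which holds 28 of the 53 parental counts, the LIM1215-R1 value was -1.80 and no longer passed (edgeR, adjusted p = 0.0281). The LIM1215-R2 value ranged from -4.75 without LIM1215-R2 replicate 1 to -3.04 without LIM1215-R2 replicate 3, and passed in each case.

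The sequences upstream of these 2 genes are shown because SMOC2 and OLFM4 were the DEGs among the 10 and changed in opposite directions. They are the 250 bases before the start site in RefSeq (GRCh38.p14), at chr6:168440934-168441183 for SMOC2 and chr13:53028563-53028812 for OLFM4, both on the plus strand and written 5′ to 3′. Capitals mark a match to a TCF/LEF motif, the binding letters of the Wnt pathway's transcription factors, searched on both strands as CTTTG followed by AA, AT, TA or TT, or to the E-box CAGCTG, read by basic helix-loop-helix factors.
SMOC2: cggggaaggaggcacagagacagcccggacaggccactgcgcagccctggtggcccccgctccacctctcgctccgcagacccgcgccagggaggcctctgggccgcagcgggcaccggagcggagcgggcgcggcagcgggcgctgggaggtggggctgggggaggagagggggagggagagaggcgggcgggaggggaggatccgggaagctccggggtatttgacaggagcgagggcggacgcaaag
OLFM4: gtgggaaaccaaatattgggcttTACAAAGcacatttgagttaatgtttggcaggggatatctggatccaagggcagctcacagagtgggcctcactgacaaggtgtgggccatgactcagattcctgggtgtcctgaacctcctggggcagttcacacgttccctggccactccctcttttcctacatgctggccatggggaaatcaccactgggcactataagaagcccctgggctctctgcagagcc
The SMOC2 window had 75.2% G and C with 24 CG steps and held neither motif. The OLFM4 window had 54% G and C with 1 CG step and held 1 TCF/LEF match on the minus strand, printed as TACAAAG, from -227 to -221 before the start. Over 35116 such windows, 12% held a TCF/LEF match and 14% the E-box, and the median window had 11 CG steps. A match is a description of letters in the window and no measured site.

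TNFRSF19, also called TROY, is a receptor of the TNF receptor family and a Wnt target that marks stem cells. Its gene is on the plus strand at chr13:23570412-23676093. TNFRSF19 stood at 14.1, 10.2 and 12.2 CPM in LIM1215-parental, at 15.5, 13.1 and 15.8 CPM in LIM1215-R1 and at 24.3, 23.6 and 23.6 CPM in LIM1215-R2. The LIM1215-R2 libraries were above all others, and LIM1215-R1 overlapped with LIM1215-parental. TNFRSF19 rose in LIM1215-R2 by a log2 fold change of 0.96 ± 0.103 (SE, edgeR, adjusted p = 1.64e-08). In LIM1215-R1 the log2 fold change of 0.27, with a 95% interval of 0.05 to 0.50, did not pass (edgeR, adjusted p = 0.0514).

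EPHB2 and EPHB3 are receptor tyrosine kinases for B-type ephrins and Wnt targets, which keep crypt base cells apart from the differentiated cells above them. EPHB2, on the plus strand at chr1:22710838-22921500, stood at 292, 309 and 296 CPM in LIM1215-parental, at 192, 205 and 205 CPM in LIM1215-R1 and at 239, 233 and 249.8 CPM in LIM1215-R2. The 3 lines did not overlap, and both resistant lines were below LIM1215-parental. EPHB2 fell by 0.57 ± 0.0456 (SE) on the log2 scale in LIM1215-R1 and by 0.31 ± 0.0452 in LIM1215-R2 (edgeR, adjusted p = 5.4e-11 and 3.07e-06). EPHB3, on the plus strand at chr3:184561785-184582408, stood at 26.3, 27.7 and 25.9 CPM in LIM1215-parental, at 29.3, 30.4 and 31.8 CPM in LIM1215-R1 and at 45.1, 45.5 and 48.3 CPM in LIM1215-R2. These lines did not overlap either, and LIM1215-parental, the highest line for EPHB2, was the lowest here. EPHB3 rose in LIM1215-R2 by a log2 fold change of 0.80 ± 0.0695 (SE, edgeR, adjusted p = 3.33e-10), and in LIM1215-R1 the value of 0.20, with a 95% interval of 0.05 to 0.34, did not pass (edgeR, adjusted p = 0.0344).

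The ratio of EPHB3 to EPHB2 CPM within a library, which is not corrected for length, was 0.0875 to 0.0902 in LIM1215-parental, 0.148 to 0.155 in LIM1215-R1 and 0.189 to 0.195 in LIM1215-R2. It was higher in every resistant library than in any parental one. The 250 bases upstream of both receptors in RefSeq (GRCh38.p14, plus strand, 5′ to 3′) are shown because the receptors moved apart, at chr1:22710588-22710837 for EPHB2 and chr3:184561535-184561784 for EPHB3, with capitals marking a match to CAGCTG.
EPHB2: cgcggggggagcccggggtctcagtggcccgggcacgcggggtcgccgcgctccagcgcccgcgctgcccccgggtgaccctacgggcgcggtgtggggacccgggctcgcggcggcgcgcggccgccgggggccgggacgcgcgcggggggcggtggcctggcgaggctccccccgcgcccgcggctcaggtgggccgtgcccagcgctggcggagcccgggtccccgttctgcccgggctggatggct
EPHB3: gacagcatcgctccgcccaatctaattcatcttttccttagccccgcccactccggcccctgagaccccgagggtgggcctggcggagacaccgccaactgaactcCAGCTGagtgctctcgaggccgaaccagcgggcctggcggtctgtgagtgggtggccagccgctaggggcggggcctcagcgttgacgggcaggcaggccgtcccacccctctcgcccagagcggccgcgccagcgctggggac
The EPHB2 window had 84.8% G and C and 42 CG steps, more than 98.6% of all windows, and held neither motif. The EPHB3 window had 70% G and C, 21 CG steps and 1 CAGCTG from -144 to -139. Of the other genes with a window, TNFRSF19 held CAGCTG in both of its RefSeq windows, PROM1 held CTTTGAT in 1 of 4 windows and CD44 held neither motif in its 1 window. For LGR5, ASCL2 and SOX9 no window was available, so their upstream sequences were not searched for either motif.

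**Figure D2:**
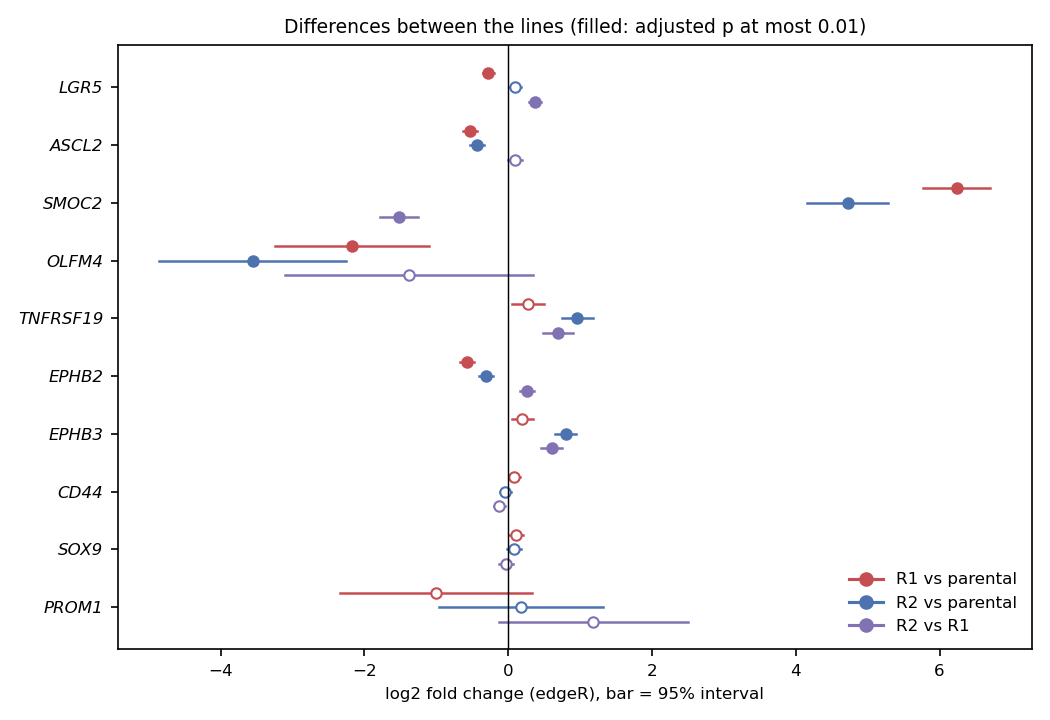
Log2 fold change with 95% interval (horizontal axis) of the 10 genes for the comparison of each resistant line with the parental one and of R2 with R1, with filled points where the adjusted p was at most 0.01. SMOC2 lies far to the right in both comparisons with parental, at 6.24 and 4.72, and OLFM4 to the left, at -2.17 and -3.55 with wide intervals.

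CD44, a receptor for hyaluronan and a Wnt target found on crypt base cells and many tumour cells, did not pass in any comparison. Its gene is on the plus strand at chr11:35139171-35232402. CD44 stood at 684, 662 and 665 CPM in LIM1215-parental, at 729.8, 693 and 711 CPM in LIM1215-R1 and at 668, 657 and 632 CPM in LIM1215-R2. LIM1215-R1 was a little above both other lines without overlap, and LIM1215-R2 overlapped with LIM1215-parental. The 95% interval of the log2 fold change was 0.01 to 0.16 for LIM1215-R1 and -0.12 to 0.04 for LIM1215-R2 (edgeR, adjusted p = 0.0816 and 0.484).

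SOX9, a transcription factor of crypt progenitors and Paneth cells, also did not pass. It lies on the plus strand at chr17:72121020-72126416. SOX9 stood at 134, 136 and 130.0 CPM in LIM1215-parental, at 145, 142 and 143 CPM in LIM1215-R1 and at 148, 139.7 and 136 CPM in LIM1215-R2. LIM1215-R1 was above LIM1215-parental without overlap, and LIM1215-R2 overlapped with both. The 95% interval was 0.01 to 0.21 for LIM1215-R1 and -0.02 to 0.18 for LIM1215-R2 on the log2 scale (edgeR, adjusted p = 0.0786 and 0.219).

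PROM1, which encodes the membrane protein CD133, was at the floor of the counts. Its gene is on the minus strand at chr4:15968228-16084023. The libraries held 5, 6 and 8 counts in LIM1215-parental, 5, 3 and 1 in LIM1215-R1 and 11, 3 and 7 in LIM1215-R2. All 3 lines overlapped, and the intervals of the log2 fold change, -2.34 to 0.33 in LIM1215-R1 and -0.96 to 1.32 in LIM1215-R2, were too wide to show a difference at this depth (edgeR, adjusted p = 0.254 and 0.855).

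The resistant lines also differed from each other. Of the 10 genes, 4 stood higher in the LIM1215-R2 libraries (LGR5, TNFRSF19, EPHB2 and EPHB3) and 1 stood higher in LIM1215-R1 (SMOC2), beside 7.16% of all genes tested that passed, 3.39% upwards and 3.77% downwards. The median log2 difference of the 10 genes was 0.18, and that of all genes was -0.00. LGR5 was higher in LIM1215-R2 by a log2 difference of 0.37 ± 0.038 and EPHB2 by 0.26 ± 0.0458 (SE, edgeR, adjusted p = 5.91e-08 and 0.000191). TNFRSF19 was higher by 0.69 ± 0.10 and EPHB3 by 0.60 ± 0.0686 (SE, edgeR, adjusted p = 1.79e-05 and 3.98e-07). SMOC2 was 2.87-fold lower in LIM1215-R2, a log2 difference of -1.52 ± 0.127 (SE, edgeR, adjusted p = 1.41e-09), and was the single DEG among the 10, beside 0.764% of all genes, 0.550% downwards. That call rests on the fold threshold, since the log2 difference was -1.49 without LIM1215-R1 replicate 2 and -1.47 without LIM1215-R2 replicate 1, and it still passed the test.

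Levels of different genes were set side by side as CPM per kilobase of the MANE Select transcript, over 12907 tested genes that have such a transcript. In LIM1215-parental, ASCL2 was highest at 286 ± 9.80 (SD, n = 3), followed by LGR5 at 147 ± 0.976 and CD44 at 123 ± 2.12, and these lay above 98.8%, 97.3% and 96.5% of genes (descriptions, with no test). SOX9 at 33.9 ± 0.747 and EPHB2 at 27.1 ± 0.794 came next, then EPHB3 at 6.29 ± 0.214 and TNFRSF19 at 2.74 ± 0.441. OLFM4 at 0.366 ± 0.138, SMOC2 at 0.0986 ± 0.106 and PROM1 at 0.0952 ± 0.0190 were last, and the spreads of SMOC2 and PROM1 overlapped. In every line the same 5 genes, ASCL2, LGR5, CD44, SOX9 and EPHB2, filled the upper places. SMOC2 moved from the 9th place to the 6th in LIM1215-R1, at 8.04 ± 0.354 per kilobase and above 49.0% of genes, and to the 8th in LIM1215-R2, at 2.81 ± 0.185 and above 30.0%. In LIM1215-R1, CD44 lay above LGR5 and SMOC2 above EPHB3, and both orders turned when the length of all annotated exons together was used.

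**Figure D3:**
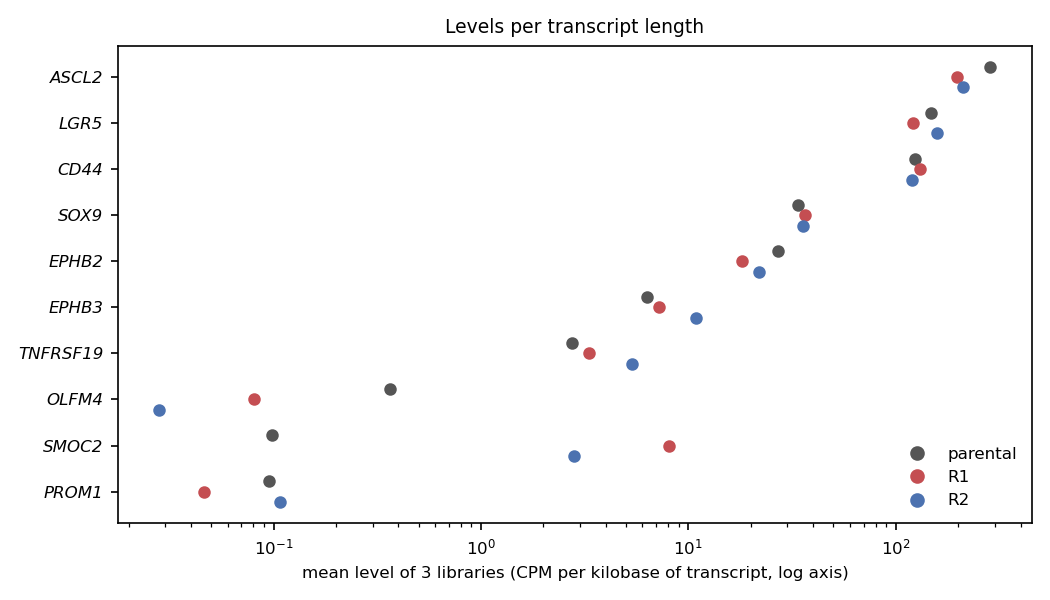
CPM per kilobase of MANE Select transcript (log axis) of the 10 genes, with 1 point for the mean of the 3 libraries of each line. ASCL2, LGR5 and CD44 lie at the upper end in every line, and SMOC2 moves from near the lower end in LIM1215-parental, at 0.0986 on average, to 8.04 in LIM1215-R1.

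The summed CPM of the 10 genes was 2225 to 2264 in LIM1215-parental, 1955 to 2007 in LIM1215-R1 and 2126 to 2168 in LIM1215-R2. The lines did not overlap, and the sum is dominated by LGR5, CD44 and ASCL2. The genes with the pattern most like that of LGR5 over the 9 libraries, by the root mean square difference of log2 CPM centred on each gene's mean, were ERI2 (0.0343), RGS2 (0.0434), PURB (0.0460), EMC2 (0.0466) and SPG11 (0.0485), of 12562 genes. For ASCL2 they were PTPRE (0.0543), USP28 (0.0547), ZMYM3 (0.0550), ZNF703 (0.0562) and EPHB4 (0.0572). EPHB2 was in place 25 for ASCL2, at 0.0736, while the nearest of the other stem cell genes to LGR5, again EPHB2, was in place 3634, at 0.182. OLFM4 and PROM1, with a mean under 1 CPM, were not among the genes compared.

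Around these genes, a list of 20 other genes of the crypt base signature was examined, of which 19 were tested. In LIM1215-R1, 2 rose, 11 fell and 6 did not pass, with a median log2 fold change of -0.45, and in LIM1215-R2, 3 rose, 12 fell and 4 did not pass, with a median of -0.53. Of all genes tested, 14.0% rose and 13.4% fell in LIM1215-R1 and 12.3% rose and 11.6% fell in LIM1215-R2, and the same shares stand behind the counts of the lists that follow. The cell cycle kinase CDK6 fell by 1.74 on the log2 scale in LIM1215-R1 and by 1.88 in LIM1215-R2. LRIG1, an inhibitor of ERBB receptors that also marks slowly cycling stem cells, fell by 1.12 and by 1.47. The transcription factor SOX4 fell by 1.02 and by 1.14, and the vitamin D receptor VDR fell by 0.96 and by 0.94. RNF43, a ubiquitin ligase that removes Wnt receptors, rose by 0.54 and 0.71, and the ion transporter SLC12A2 rose by 0.50 and 0.77. The general Wnt target AXIN2 did not pass, at -0.01 and 0.12 (edgeR, adjusted p = 0.818 and 0.0110). In LIM1215-R2 it missed the threshold of 0.01 narrowly, and its libraries lay above those of LIM1215-parental without overlap. In LIM1215-R1 the AXIN2 libraries overlapped with the parental ones.

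For the receptors of the R-spondin pathway, 8 of 12 listed genes were tested, RNF43 among them, of which 2 rose and 4 fell in LIM1215-R1 (27.3% of all genes passed) and 3 rose and 4 fell in LIM1215-R2 (23.8% of all genes passed), with medians of -0.25 and -0.10. One of those that rose in LIM1215-R2 was ZNRF3, a relative of RNF43, at 0.17, whose call was lost with total counts (0.15) and without parental replicate 1 or 3, LIM1215-R1 replicate 3 or LIM1215-R2 replicate 1 or 2 (0.14 to 0.17). The ligands RSPO1, RSPO2, RSPO3 and RSPO4 had 0 counts in all 9 libraries, which allows at most 0.158 to 0.217 CPM in a library. LGR6, a relative of LGR5, rose by 2.85 on the log2 scale in LIM1215-R1 and by 1.79 in LIM1215-R2, from 0.599 ± 0.167 CPM (SD, n = 3) in LIM1215-parental to 4.40 ± 0.451 and 2.11 ± 0.642 CPM. LGR4, the third receptor of this family, fell by 0.62 and by 0.68. The Wnt receptor FZD7 fell by 1.26 and by 1.55, FZD5 fell by 0.63 and by 0.58, and the coreceptor LRP6 fell by 0.47 and by 0.26. The receptors of R-spondin thus moved in different directions in LIM1215-R1, where LGR5 and LGR4 fell and LGR6 rose.

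Of 11 effectors of Wnt signalling, 3 rose and 1 fell in LIM1215-R1 (27.3% of all genes passed) and 5 rose and 1 fell in LIM1215-R2 (23.8% of all genes passed), with medians of -0.00 and 0.19. β-catenin (CTNNB1) rose by 0.42 and 0.59, the transcription factor TCF7 by 0.82 and 0.53 and the coactivator BCL9L by 0.79 and 0.78, while its relative BCL9 fell by 0.58 and by 0.66. LEF1 passed in LIM1215-R2 at 0.45 and was at -0.00 in LIM1215-R1, and the resistant lines differed by 0.45 (edgeR, adjusted p = 0.00523), although the call was lost without parental replicate 3 or LIM1215-R2 replicate 3, where the values were both 0.41. TCF7L2 passed in LIM1215-R2 at 0.24 and did not differ between the resistant lines beyond the threshold (0.16, edgeR, adjusted p = 0.112). Its call was lost with total counts (0.22). The TCF7L2 call was also lost without parental replicate 1 or 3 or LIM1215-R2 replicate 1 or 2, with values of 0.20 to 0.26. Of the 3 B-type ephrins, which are ligands of EPHB2 and EPHB3, EFNB2 rose by 0.60 and 0.44. EFNB1 rose by 0.24 in LIM1215-R1, a call that was lost without parental replicate 1 or 3 or LIM1215-R1 replicate 2 or 3 (0.20 to 0.23), and stood at 0.18 in LIM1215-R2, where it passed only without parental replicate 2 (0.23) or with the replicate number in the model (0.18). Of 4 reserve stem cell genes, 3 were tested. LRIG1 fell in both lines, and TERT, the catalytic part of telomerase, fell by 1.11 in LIM1215-R1 and was at -0.18 in LIM1215-R2 without passing. The difference of TERT between the resistant lines was itself 0.93 ± 0.132 (SE, edgeR, adjusted p = 1.32e-05).

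A list of 8 genes of the regenerative, fetal-like state of the intestinal epithelium, which arises after injury when LGR5 cells are lost, had 5 tested genes, of which 3 rose in each resistant line and 2 did not pass (edgeR), beside 14.0% of all genes that rose in LIM1215-R1 and 12.3% that did so in LIM1215-R2. The cytokine IL33 rose by 4.93 and 4.76 on the log2 scale, the annexin ANXA1 by 2.35 and 2.22, and clusterin (CLU) by 0.98 and 0.50. The CLU call in LIM1215-R2 was lost without parental replicate 1 or 3 or LIM1215-R2 replicate 1 or 3, where the values were 0.41 to 0.51. The summed CPM of the list was 22.9 to 26.1 in LIM1215-parental, 117 to 130 in LIM1215-R1 and 107 to 115 in LIM1215-R2.

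**Figure D4:**
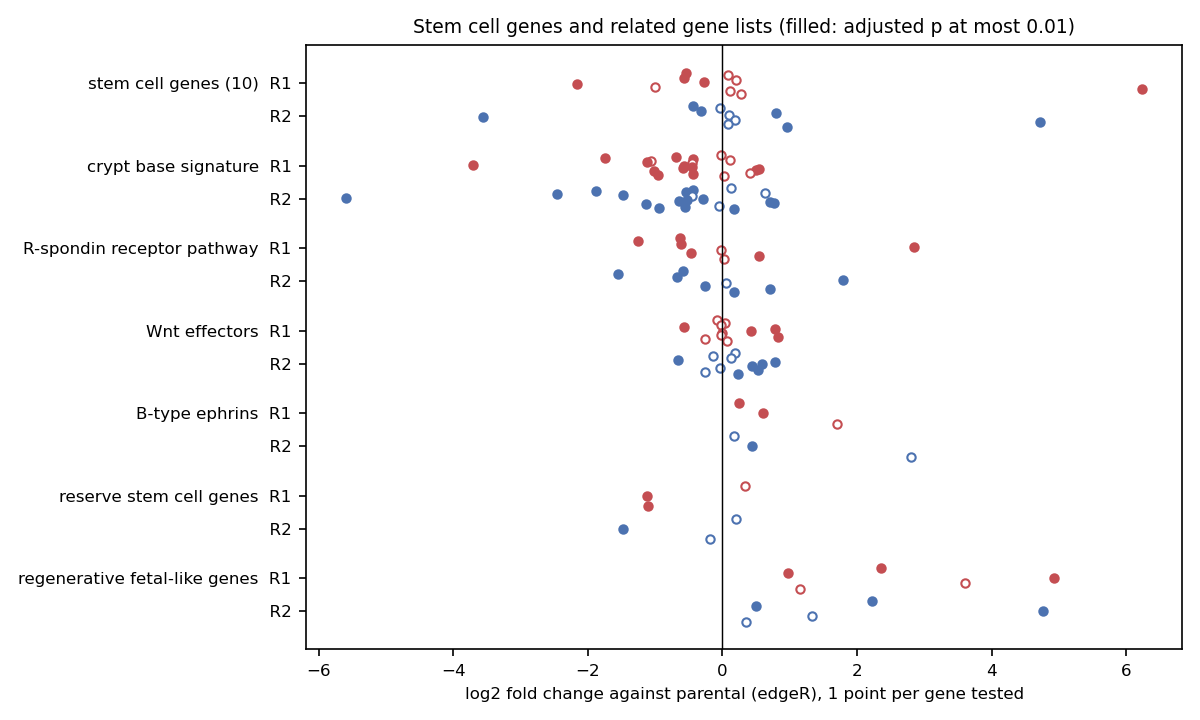
Log2 fold change (horizontal axis) of each tested gene of the stem cell genes and the lists around them, for the 2 resistant lines against the parental one, with filled points where the adjusted p was at most 0.01. The crypt base signature lies mostly to the left of 0, with medians of -0.45 and -0.53, and the 3 regenerative genes that passed lie to the right.

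Markers of the cell types that a colorectal line could hold were counted beside these results. All 10 colorectal epithelial markers were at 1 CPM or more in every line, with a summed level of 13184 to 13547 CPM in LIM1215-parental, 16534 to 16821 in LIM1215-R1 and 15001 to 15404 in LIM1215-R2. The sum is dominated by KRT8, at means of 5716, 7882 and 7169 CPM, and KRT18, at 4131, 5498 and 5007 CPM. Of the 10, 4 rose and 5 fell in each resistant line, with median log2 fold changes of -0.19 and -0.22. Of all genes tested, 27.3% passed in LIM1215-R1 and 23.8% in LIM1215-R2, which also stands behind the marker counts below. Goblet cell markers summed to 158 to 172 CPM in LIM1215-parental, 54.9 to 67.8 CPM in LIM1215-R1 and 83.9 to 95 CPM in LIM1215-R2. Of the 7 goblet markers tested, 1 rose and 3 fell in LIM1215-R1 and 2 rose and 3 fell in LIM1215-R2, CLCA1 was at 0 in all libraries and ATOH1 had 0 counts in the resistant ones. REG4 carried most of the goblet sum in LIM1215-parental, at 101 ± 3.17 CPM (SD, n = 3). REG4 fell to 14.8 ± 2.04 CPM in the R1 line and to 32.0 ± 2.66 CPM in the R2 line. MUC2 rose in LIM1215-R1, and SPINK4 and FCGBP rose in LIM1215-R2. The MUC2 call was lost without parental replicate 1 (log2 fold change 0.81) and the FCGBP call without parental replicate 3 (0.50). Absorptive colonocyte markers summed to 6.36 to 7.79, 6.13 to 7.97 and 3.86 to 4.11 CPM, with KRT20 and GUCA2B at 0. Of the 6 colonocyte markers tested, 3 rose and 2 fell in LIM1215-R1, and 1 rose and 2 fell in LIM1215-R2. FABP1 went from a mean of 4.13 CPM to 0.996 and 0.930 CPM, and ALPI from 0.993 to 4.44 and 2.17 CPM. The CA2 call in LIM1215-R1 was lost with the DESeq2 Wald test and in the fit to 6 libraries. It was also lost without parental replicate 1 or 3 or LIM1215-R1 replicate 1 or 2. The CEACAM7 call in LIM1215-R1 was lost with the DESeq2 Wald test and without parental replicate 1 or 3 or LIM1215-R1 replicate 3. The ALPI call in LIM1215-R2 was lost without parental replicate 3 or LIM1215-R2 replicate 2 or 3. Tuft cell markers summed to 3.76 to 4.20, 2.5 to 3.07 and 2.08 to 2.35 CPM. Enteroendocrine markers reached at most 0.125 CPM in sum and Paneth cell markers at most 0.506 CPM, with DEFA5 and ITLN2 at 0. Fibroblast markers reached 2.18 CPM with COL1A2 and PDGFRA at 0, and endothelial markers 0.722 CPM with KDR at 0. Leukocyte markers summed to 6.96 to 10.1, 12.0 to 14.6 and 8.56 to 10.6 CPM in the 3 lines, with PTPRC and CD3E at 0. The summed levels of goblet, tuft, Paneth and epithelial markers did not overlap between LIM1215-parental and either resistant line, nor did those of leukocyte markers between LIM1215-parental and LIM1215-R1 or those of colonocyte and endothelial markers between LIM1215-parental and LIM1215-R2, and their part in the results on the stem cell genes was not tested.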

How the data were processed

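Stranded, paired-end libraries of poly(A) RNA were sequenced, 3 from each of the 3 lines. The counts were deposited unnormalized, 1 table per library, and the authors made them with STAR, hg38 and HTSeq 0.9.1, set to the reverse strand. The gene annotation is not given in the sources used here.

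Libraries were grouped by line. The analysis used edgeR 4.0.16 and limma 3.58.1 under R 4.3.3, after genes with fewer than 10 counts over the 9 libraries were removed. A quasi-likelihood model with the 3 lines was fitted to all 9 libraries with TMM scaling, and the 3 pairs of lines were tested with two-sided tests and Benjamini-Hochberg adjustment over all 19102 genes. Differences are log2 fold changes, with the SE derived from the test statistic. The method was tested on simulated data. For likeness, a prior count of 2 was added before log2 CPM were taken. Gene positions and promoter windows came from RefSeq on GRCh38.p14.

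The alternatives were 2 other filters, DESeq2's size factors, total counts, the DESeq2 1.42.0 Wald test, fits to 6 libraries, the replicate number as a term, a DEG threshold of 1 and the omission of each library. The 10 genes and the 15 other lists were chosen with earlier results of these data known. All 10 genes are reported, and from the other lists up to 6 genes that passed with at least 1 CPM in a line, ranked by the size of their change, together with listed genes without counts. AXIN2 was named after its values were seen, and 1 listed gene is not reported here. Intervals cover the spread between these libraries, and the floor of 3 counts covers counting error only. Same-strand neighbours overlap LGR5, EPHB2, CD44 and PROM1.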

Additional observations from a re-analysis of the deposited data

Results flagged for a closer look

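In 5 of the 10 stem cell genes the resistant lines, compared with each other in the same model, differed beyond the threshold, so that the change from LIM1215-parental was not the same in both lines. Of all genes tested, 7.16% passed in this comparison. The log2 difference of LIM1215-R2 minus LIM1215-R1 was 0.37 for LGR5, with 3 of 3 LIM1215-R2 libraries above all LIM1215-R1 libraries (edgeR's quasi-likelihood test, Benjamini-Hochberg adjusted p = 5.91e-08). It was 0.69 for TNFRSF19 and 0.60 for EPHB3, each with 3 of 3 libraries higher (edgeR, adjusted p = 1.79e-05 and 3.98e-07). For EPHB2 it was 0.26, although both lines were below LIM1215-parental (edgeR, adjusted p = 0.000191). For SMOC2 it was -1.52, although both lines were above LIM1215-parental, with 3 of 3 LIM1215-R2 libraries lower (edgeR, adjusted p = 1.41e-09).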

How the results depend on the processing

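Of the calls on the 10 genes in the 3 comparisons, all but those of OLFM4, CD44 and PROM1 kept their direction and their side of the threshold under the 16 alternatives. OLFM4 in LIM1215-R1 lost its call without parental replicate 3 (log2 fold change -1.80, edgeR, adjusted p = 0.0281), and CD44 gained one between the resistant lines with the replicate block (-0.12, edgeR, adjusted p = 0.0065). PROM1 in LIM1215-R2, which passed in none of its fits (edgeR or DESeq2, adjusted p of at least 0.542), changed from 0.18 to -0.25 without LIM1215-R2 replicate 1, and PROM1 was not tested where 10 counts in at least 3 libraries were required. When each library was left out in turn, the number of the 10 genes that were DEGs was 1 to 2 in LIM1215-R1 and 0 to 1 between the resistant lines, the number of all genes that passed between the resistant lines was 743 to 1712 against 1368, and the number of B-type ephrins that passed was 1 to 2 in either comparison with parental. With the replicate block, 2 B-type ephrins passed in LIM1215-R2, the numbers of the 10 genes that passed were 5, 6 and 6, and 5841, 5197 and 2044 of all genes passed. These numbers of all genes were above the 5222, 4554 and 1368 of the main fit. The replicate numbers showed no clear pairing of the libraries. The correlation of deviations was -0.02 to 0.10 between libraries with the same number and -0.11 to 0.06 between those with different numbers. In both other lines, 0 of 9 libraries had the highest correlation with its own number. A weak pairing was not tested. The cause of these changes was not tested. The depth limits OLFM4, PROM1 and the parental level of SMOC2, which rest on few counts.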
